A study of Equus caballus with 10 samples.

Results

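The count table of the series has 247 rows, 8 of them spike-in calibrators and the rest equine miRNAs, and 9 of those miRNAs are known mainly from tissues other than cartilage and synovium. They are eca-miR-122 and eca-miR-192 (liver), eca-miR-1, eca-miR-133a, eca-miR-499-5p and eca-miR-499-3p (skeletal and heart muscle), eca-miR-200c and eca-miR-205 (epithelium), and eca-miR-9a (nervous system). They were taken by name, and the question was which of them appeared, in how many libraries, and whether above a floor of 3 counts. Small RNA was sequenced from RNA captured through 5-ethynyl uridine (5-EU), a modified uridine taken up into RNA as it is made, so that labelled RNA can be joined to biotin and captured on beads. Primary cells came from metacarpophalangeal joints of horses. EV-recipient synoviocytes from 4 horses (25% oxygen) had received extracellular vesicles (EVs) pooled from the labelled chondrocytes of 8 horses, and EV-recipient chondrocytes from 5 horses (5% oxygen) had received EVs pooled from the labelled synoviocytes of 9 horses. Donor cells were kept with the label for 48 h, after which the treatment and the collection of medium were repeated, and recipients were exposed to EVs for 24 h, after earlier growth of all cells in 10% foetal bovine serum. The libraries of a group are thus different horses that shared a pool of EVs. Recipient cell type, EV source and oxygen changed together, so that their parts in a difference cannot be told apart.

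The remaining library was labelled only as a synoviocyte. The group row of the deposited count table and the study's figures name it as the control that received EVs from unlabelled chondrocytes. Because its sample label does not say so, it was left out of every comparison and is called here the unassigned library. It held none of the 9 miRNAs.

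A miRNA is a short RNA that is cut from a hairpin precursor and guides silencing proteins to matching messenger RNAs. Many miRNAs are made in nearly all cells, but some are made at high level in a single tissue, because their host transcripts are switched on by the factors that define it. miR-122 makes up most of the miRNA of hepatocytes and acts on cholesterol and lipid metabolism. miR-1 and miR-133a are cut from shared transcripts in muscle, and miR-499 lies in an intron of a myosin heavy chain gene. miR-200c belongs to the family that holds down ZEB1 and ZEB2, the repressors of E-cadherin, and so keeps cells epithelial. miR-205 marks stratified epithelium, and miR-9 regulates the division of neural progenitors.

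Library depth, here the sum of all miRNA counts, was 436475, 192282, 32269 and 17151 in EV-recipient synoviocytes and 4891, 444408, 39689, 284774 and 98608 in EV-recipient chondrocytes (replicates 1 onward). It was 20330 in the unassigned library. Abundance is given as counts per 1000000 miRNA counts of a library (RPM), and intervals are exact Clopper-Pearson 95% intervals of that share. Where a library had 0 counts, the floor of 3 counts is the level that could have gone unseen: 6.87, 15.6, 93.0 and 175 RPM in EV-recipient synoviocytes, and 613, 6.75, 75.6, 10.5 and 30.4 RPM in EV-recipient chondrocytes. Intervals and floors cover counting error only, since reads amplified by PCR without molecular identifiers are not independent molecules. Beside the cell type labels, 10 rows known from cartilage and mesenchymal cells were read, among them both arms of miR-140, the cartilage miRNA. Those rows summed to between 333879 and 503882 RPM in EV-recipient synoviocytes and between 206304 and 316273 RPM in EV-recipient chondrocytes. Most of each sum was eca-miR-21, so the sums say little about the other rows. By mean RPM, eca-miR-21, eca-miR-143, eca-miR-145, eca-miR-199b-5p and eca-miR-214 were higher in EV-recipient synoviocytes. Both arms of miR-140, eca-miR-199a-3p, eca-miR-199a-5p and eca-miR-199b-3p were higher in EV-recipient chondrocytes. Of the arms of miR-140, eca-miR-140-3p had 0, 9, 2 and 0 counts in EV-recipient synoviocytes and 1, 835, 111, 235 and 88 in EV-recipient chondrocytes. eca-miR-140-5p had 27, 26, 0 and 0 counts in EV-recipient synoviocytes and 0, 612, 40, 265 and 135 in EV-recipient chondrocytes, so that the groups overlapped for this arm, with EV-recipient chondrocyte replicate 1, the shallowest library, at 0. Both arms thus averaged higher in the cells that had received synoviocyte EVs than in those that had received chondrocyte EVs. Whether the captured RNA came from the EVs or from the recipient cells was not tested, so these rows cannot settle the labels. For scale, the most abundant miRNA, eca-miR-21, averaged 326574 ± 80420.5 RPM (SD, n = 4) among EV-recipient synoviocytes and 216291 ± 43653 RPM (SD, n = 5) among EV-recipient chondrocytes. No tissue miRNA passed 1399 RPM in any library.

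All 9 miRNAs were counted somewhere, as was every miRNA of the table. All 9 reached 3 counts in at least 1 library, as did all but 17 miRNAs of the table. None of the 9 was counted in more than 4 of the 9 labelled libraries. The 9 made up 381 of 1550547 counts in those libraries, or 0.0246%. There were 67 counts in EV-recipient synoviocytes and 314 in EV-recipient chondrocytes, and the summed level averaged 405 ± 665 RPM (SD, n = 4) in EV-recipient synoviocytes and 237 ± 164 RPM (SD, n = 5) in EV-recipient chondrocytes. Without eca-miR-200c, which was counted in 1 library, it averaged 54.8 ± 59.6 RPM in EV-recipient synoviocytes and 237 ± 164 RPM in EV-recipient chondrocytes, so that the direction of the summed level turned. Without eca-miR-122 it averaged 405 ± 665 RPM in EV-recipient synoviocytes and 94.2 ± 68.8 RPM in EV-recipient chondrocytes, and the direction did not turn. These sums were chosen after the data were seen. Of 81 possible values (9 miRNAs in 9 libraries), 24 held at least 1 count, 15 held 3 or more, 12 held more than 3, and 6 held 10 or more. The tissue miRNAs were counted in a median of 3 libraries, against 5 over all miRNAs of the table, and their median summed count was 16, against 118. Of all miRNAs in the table, 107 (44.8%) were likewise limited to 4 or fewer libraries, and 44 were counted in all 9. By summed count eca-miR-122 ranked 94th in the table, and the other members ranked between 159th and 208th.

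**Figure D1:**
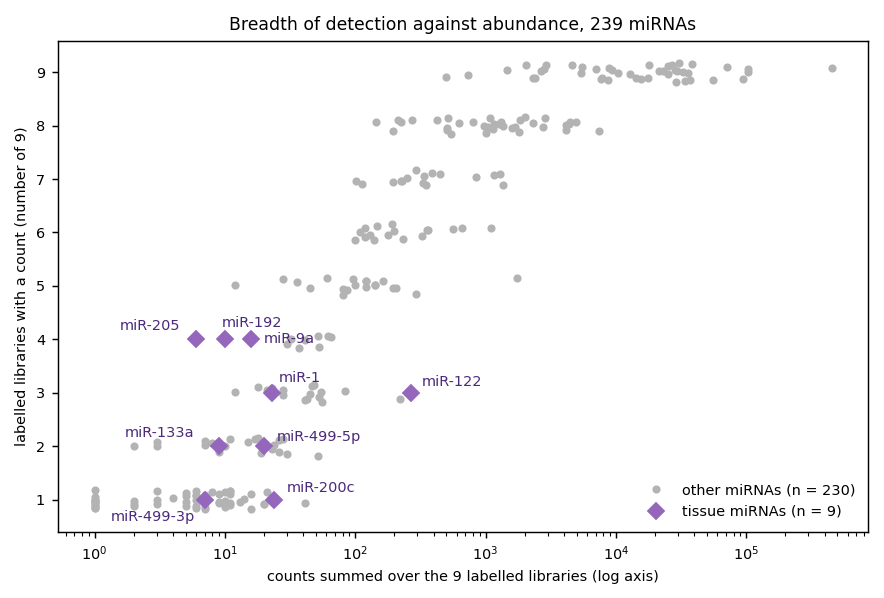
Each point is a miRNA of the table, by its counts summed over the 9 labelled libraries (x axis, log scale) and the number of those libraries with a count (y axis, grey points spread slightly up and down). The 9 tissue miRNAs (purple) all lie at 4 libraries or fewer, and eca-miR-122, with 266 counts in 3 libraries, lies farthest to the right among them.

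At a minimum of 1 count, 8 of the 9 (88.9%) were found in EV-recipient synoviocytes, where 82% of all miRNAs were, and 7 (77.8%) in EV-recipient chondrocytes, where 89.1% were. Both groups held 6 of them, a share to be read against 71.1% of all miRNAs in the table. eca-miR-200c and eca-miR-499-3p were counted only in EV-recipient synoviocytes (2 of 9, where the whole table gave 10.9%), and eca-miR-122 only in EV-recipient chondrocytes (1 of 9, where the whole table gave 18%). At a minimum of 3 counts the numbers were 7 in EV-recipient synoviocytes (77.4% of all miRNAs) and 5 in EV-recipient chondrocytes (82% of all miRNAs), with 3 in both groups (66.5% in the whole table). At more than 3 counts there were 5 in EV-recipient synoviocytes (74.5% of all miRNAs) and 5 in EV-recipient chondrocytes (82% of all miRNAs). Of these, 2 were in both groups (65.3% in the whole table), 3 only in EV-recipient synoviocytes (9.21%) and 3 only in EV-recipient chondrocytes (16.7%). At a minimum of 10 counts there were 2 in EV-recipient synoviocytes (63.2% of all miRNAs) and 3 in EV-recipient chondrocytes (72.4% of all miRNAs), with 0 in both (57.3% in the whole table). Counts in at least 2 libraries of a group were found for 3 of the 9 in EV-recipient synoviocytes (61.5% of all miRNAs) and 4 in EV-recipient chondrocytes (66.9% of all miRNAs), with 2 in both (55.6% in the whole table). eca-miR-1 and eca-miR-200c reached 10 counts in EV-recipient synoviocytes, and eca-miR-122, eca-miR-499-5p and eca-miR-9a did so in EV-recipient chondrocytes.

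The number of tissue miRNAs went with depth. The 3 deepest libraries held 7 (EV-recipient synoviocyte replicate 1), 5 (EV-recipient chondrocyte replicate 2) and 4 (EV-recipient chondrocyte replicate 4), while each other labelled library held 1 or 2. The whole table went with depth too. The same 3 libraries held 175, 176 and 161 of all miRNAs, and the other labelled libraries held 52 to 152. EV-recipient synoviocyte replicate 2, with 192282 counts, held single counts of eca-miR-192 and eca-miR-205 and nothing else. When every library was reduced to 4891 counts by calculation, the number expected was 1.87 in EV-recipient synoviocytes and 3.06 in EV-recipient chondrocytes. The groups hold 4 and 5 libraries, so their reduced totals still differed. EV-recipient chondrocyte replicate 1 already had 4891 counts, so its single count of eca-miR-205 entered the 3.06 in full. Without EV-recipient synoviocyte replicate 1, the number found in EV-recipient synoviocytes was 4 in place of 8. For all miRNAs no such numbers are at hand, so these describe the tissue miRNAs alone.

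**Figure D2:**
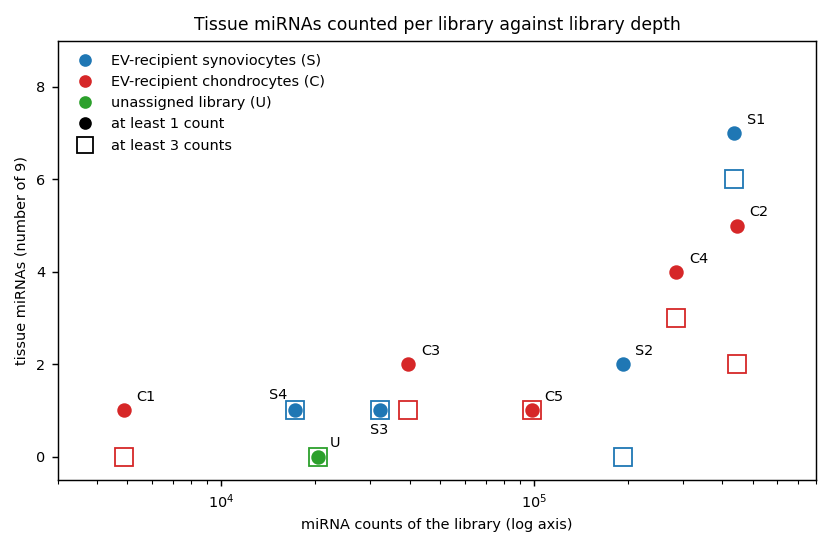
Number of the 9 tissue miRNAs (y axis) with at least 1 count (filled circles) and at least 3 counts (open squares) in each library, against its miRNA counts (x axis, log scale). S, EV-recipient synoviocytes (blue); C, EV-recipient chondrocytes (red); U, the unassigned library (green), which holds 0; S1 holds 7 with at least 1 count, the highest number.

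eca-miR-122 was the most counted of the 9. All 4 EV-recipient synoviocyte libraries were at 0, and EV-recipient chondrocytes had 0, 209, 2, 55 and 0 counts (replicates 1 to 5). In RPM these were 470 (interval 409 to 539) in replicate 2, 50.4 (6.10 to 182) in replicate 3 and 193 (145 to 251) in replicate 4. EV-recipient chondrocytes were thus split: replicates 2 and 4 lay far above the floor, replicate 3 lay below it, and the remaining libraries were empty. Replicate 5 was deep enough to show the difference, since at the share of replicate 2 it would have held 46.4 counts and it held 0, replicate 4 would have held 134 and held 55, and replicate 3 would have held 18.7 and held 2. Replicate 1 was not, since 2.30 counts would be due there.

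Among EV-recipient synoviocytes, the share of EV-recipient chondrocyte replicate 2 would have given 205, 90.4, 15.2 and 8.07 counts of eca-miR-122 in replicates 1 to 4, and none was found. Over the summed counts of the groups, the level in EV-recipient chondrocytes, 304.9 RPM, was 68.9-fold the floor of EV-recipient synoviocytes. That floor, 3 counts over the 4 synoviocyte libraries, was 4.42 RPM. Such a ratio takes the observed counts as exact and leaves out the spread between horses, so it is not a lower bound on a group difference. Without EV-recipient chondrocyte replicate 2, which held 209 of the 266 counts, the ratio was 30.1-fold (133 RPM in EV-recipient chondrocytes), a value computed after the data were seen. The spread between horses was as large as the difference between groups. Mean RPM was 0 in EV-recipient synoviocytes and 143 ± 199 (SD, n = 5) in EV-recipient chondrocytes (exact permutation test over the group labels of the 9 libraries, two-sided, p = 0.286, adjusted p = 0.893 over all miRNAs). For a miRNA counted in 3 EV-recipient chondrocyte libraries alone, this test could not have given a p under 0.05, so it decides nothing here. The groups overlapped, as 2 EV-recipient chondrocyte libraries were also at 0.

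eca-miR-192, the other liver miRNA, which also belongs to intestine and kidney, was near the limit of counting. It had 6, 1, 0 and 0 counts in EV-recipient synoviocytes and 0, 1, 0, 2 and 0 in EV-recipient chondrocytes. Only EV-recipient synoviocyte replicate 1 was above the floor, at 13.7 RPM (5.04 to 29.9). Mean RPM was 4.74 ± 6.49 (SD, n = 4) in EV-recipient synoviocytes and 1.85 ± 3.05 (SD, n = 5) in EV-recipient chondrocytes (exact permutation p = 0.484). The 4 libraries with counts were the 4 deepest, and the counts spread over the libraries much as depth did: their chi-square over degrees of freedom was 0.765, where counting error alone gives values near 1.

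Of the other liver names listed, eca-miR-215 was the only one with a row, while miR-194 and miR-885 had none. eca-miR-215 shares its seed with miR-192, and since the authors allowed 1 mismatch, some reads of these relatives may have been exchanged. It had 4, 7, 6 and 0 counts in EV-recipient synoviocytes, 0, 0, 0, 18 and 10 in EV-recipient chondrocytes and 12 in the unassigned library. Neither eca-miR-122 nor eca-miR-192 was counted in the unassigned library. Among EV-recipient chondrocytes, replicate 2 had 209 counts of eca-miR-122, 1 of eca-miR-192 and 0 of eca-miR-215, and replicate 4 had 55, 2 and 18 of the same miRNAs. These were the only EV-recipient chondrocyte libraries with eca-miR-192.

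**Figure D3:**
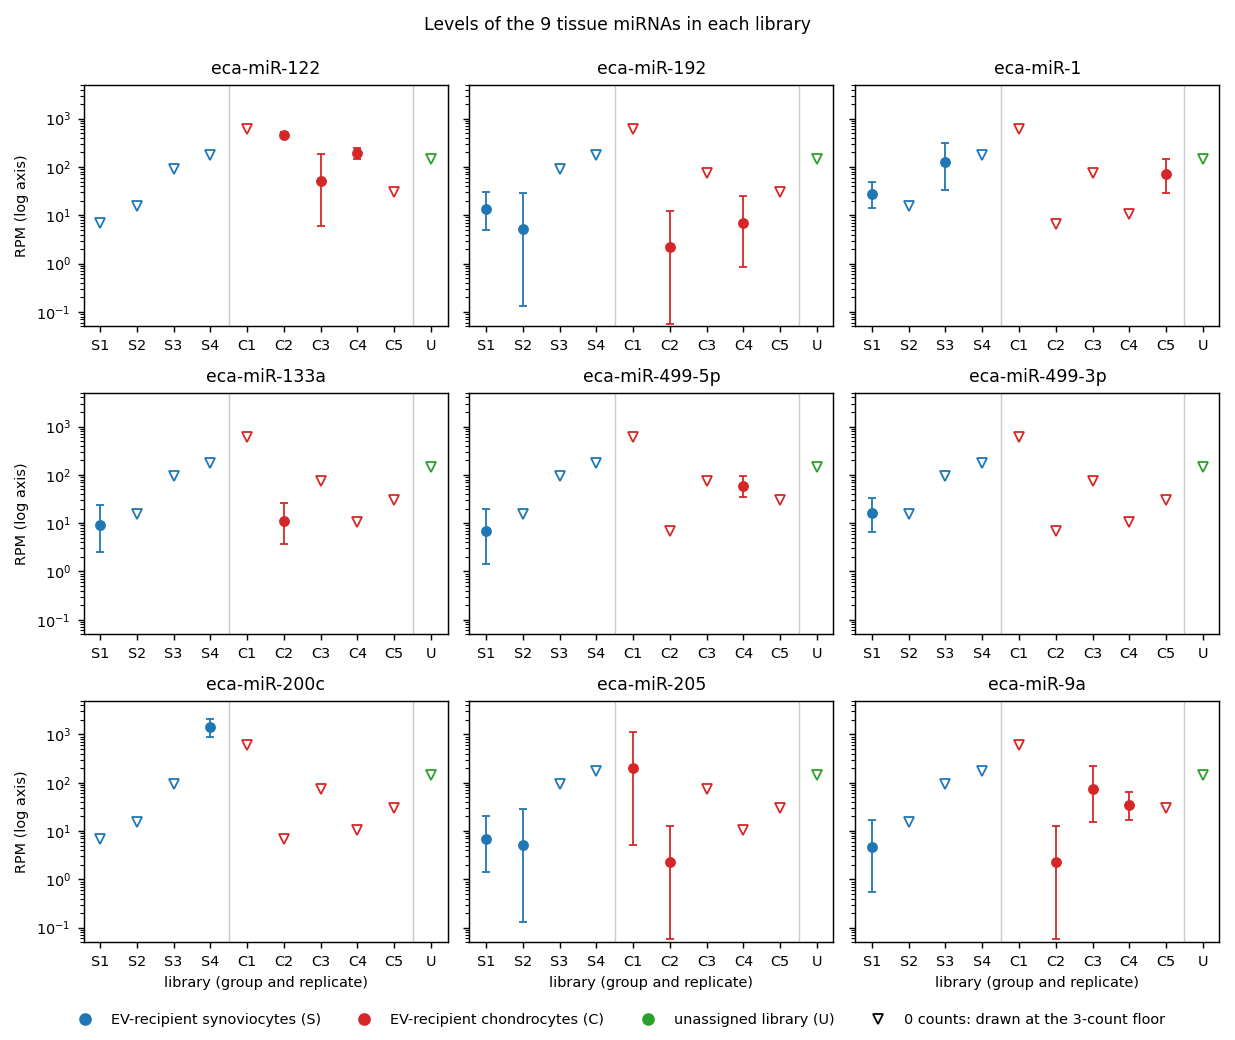
RPM of each tissue miRNA in each library (y axis, log scale), with exact 95% intervals as bars; open triangles mark libraries with 0 counts and stand at the 3-count floor. S1 to S4 (blue) are EV-recipient synoviocytes, C1 to C5 (red) EV-recipient chondrocytes and U (green) the unassigned library. The lowest floors are in S1 and C2, and the highest level is eca-miR-200c in S4, at 1399 RPM.

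The muscle miRNAs were spread over both groups. eca-miR-1, which acts on muscle differentiation, had 12, 0, 4 and 0 counts in EV-recipient synoviocytes and 0, 0, 0, 0 and 7 in EV-recipient chondrocytes. All 3 libraries with a count were above the floor, at 27.5 RPM (14.2 to 48.0) and 124 RPM (33.8 to 317) in EV-recipient synoviocyte replicates 1 and 3 and 71.0 RPM (28.5 to 146) in EV-recipient chondrocyte replicate 5. EV-recipient chondrocyte replicate 2, with the greatest depth of all, had none (floor 6.75 RPM, interval up to 8.30). Replicate 4 also had none (floor 10.5 RPM, interval up to 13.0). Means were 37.9 ± 58.8 RPM (SD, n = 4) in EV-recipient synoviocytes and 14.2 ± 31.7 RPM (SD, n = 5) in EV-recipient chondrocytes (exact permutation p = 0.563). Without EV-recipient synoviocyte replicate 3, whose level rests on 4 counts, the difference turned from 23.7 to -5.03 RPM.

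eca-miR-133a, which is known to promote the growth of myoblasts, was counted in a single library of each group, with 4 counts in replicate 1 of EV-recipient synoviocytes and 5 in replicate 2 of EV-recipient chondrocytes. These stood at 9.16 RPM (2.50 to 23.5) and 11.3 RPM (3.65 to 26.3), and the intervals overlapped widely. Its partner eca-miR-1 was counted with it only in EV-recipient synoviocyte replicate 1. In EV-recipient chondrocyte replicate 5, where eca-miR-1 had 7 counts, eca-miR-133a had 0, with a floor of 30.4 RPM. The group means of eca-miR-133a were nearly the same (2.29 ± 4.58 RPM, SD, n = 4, in EV-recipient synoviocytes and 2.25 ± 5.03 RPM, SD, n = 5, in EV-recipient chondrocytes; exact permutation p = 1).

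The 2 arms of miR-499 gave opposite pictures in the 2 libraries that held them. eca-miR-499-5p, the arm usually kept from this precursor, had 3 counts in EV-recipient synoviocyte replicate 1 and 17 in EV-recipient chondrocyte replicate 4, at 6.87 RPM (1.42 to 20.1) and 59.7 RPM (34.8 to 95.6). eca-miR-499-3p had 7 counts in EV-recipient synoviocyte replicate 1, at 16.0 RPM (6.45 to 33.0), and none in any other library. In that library the 3p arm had more counts than the 5p arm, though the intervals overlapped. In EV-recipient chondrocyte replicate 4 the 3p arm was at 0, with a floor of 10.5 RPM, beside 17 counts of the 5p arm. Between groups, the 5p arm averaged 1.72 ± 3.44 RPM (SD, n = 4) in EV-recipient synoviocytes and 11.9 ± 26.7 RPM (SD, n = 5) in EV-recipient chondrocytes (exact permutation p = 1). The 3p arm averaged 4.01 ± 8.02 RPM (SD, n = 4) in EV-recipient synoviocytes and 0 RPM in EV-recipient chondrocytes (exact permutation p = 0.444). That p is the same for any count held by 1 EV-recipient synoviocyte library alone, so it decides nothing here. Over summed counts the 3p arm in EV-recipient synoviocytes was 3-fold the floor of EV-recipient chondrocytes, on 7 counts of 1 library. As that ratio takes the 7 counts as exact, it is not a lower bound on a difference.

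EV-recipient synoviocyte replicate 1 was the only library with all 4 muscle rows, which summed to 26 counts or 59.6 RPM there. Elsewhere a library held at most 1 of them: 4 counts in EV-recipient synoviocyte replicate 3, and, in replicates 2, 4 and 5 of EV-recipient chondrocytes, 5, 17 and 7 counts. The names miR-133b, miR-206, miR-208a and miR-208b of the muscle list had no row in the table.

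eca-miR-200c had the highest RPM of the 9 miRNAs, and all of it came from 1 library. It had 0, 0, 0 and 24 counts in EV-recipient synoviocyte replicates 1 to 4 and 0 in every EV-recipient chondrocyte library. The 24 counts made 1399 RPM (897 to 2081), because replicate 4 was the shallowest EV-recipient synoviocyte library. At that share EV-recipient synoviocyte replicates 1 to 3 would have held 611, 269 and 45.2 counts, and EV-recipient chondrocyte replicates 2 and 4 would have held 622 and 398. None of them held any. Over summed counts the level in EV-recipient synoviocytes, 35.4 RPM, was 10.3-fold the floor of 3.44 RPM over the 5 EV-recipient chondrocyte libraries. That ratio takes the counts as exact and rests on replicate 4 alone. Means were 349.8 ± 699.7 RPM (SD, n = 4) in EV-recipient synoviocytes and 0 RPM in EV-recipient chondrocytes (exact permutation p = 0.444, adjusted p = 0.893). A miRNA counted in 1 EV-recipient synoviocyte library alone gets this p whatever its count, so the test could not decide on a difference.

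The library with eca-miR-200c had few miRNA counts beside its spike-in counts. Their ratio was 0.0634 there and 0.239 to 2.49 in the other EV-recipient synoviocyte libraries, against 0.0134 to 2.35 in EV-recipient chondrocytes, where replicate 1 was lower still. It was 0.0786 in the unassigned library. Markers of blood cells were at their highest of all libraries in the library with eca-miR-200c. The 6 rows of that list summed to 17025 RPM in EV-recipient synoviocyte replicate 4, to between 55.0 and 2107 RPM in the other EV-recipient synoviocyte libraries, to between 45.7 and 3680 RPM in EV-recipient chondrocytes, and to 1722 RPM in the unassigned library. Of these, 4 of 6 had a count in replicate 4: 177 for eca-miR-451, 49 for eca-miR-144 and 65 for eca-miR-486-5p, all known from red cells, and 1 for eca-miR-142-3p, known from leukocytes. eca-miR-223 and eca-miR-150, known from myeloid cells and lymphocytes, were at 0 there. The part of these cells and of the low yield in the count of eca-miR-200c was not tested. In bulk samples such as these, fewer cells of a type and less RNA per cell cannot be told apart.

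Set against the spike-in counts, the order of the leading miRNAs changed. eca-miR-200c stood at 0.0887 counts per 1000 spike-in counts in EV-recipient synoviocyte replicate 4. eca-miR-122 stood at 1.11 and 0.278 in EV-recipient chondrocyte replicates 2 and 4, above eca-miR-200c on this scale and below it in RPM.

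eca-miR-205, the other epithelial miRNA, was seen in 4 libraries and reached the floor in 1, with 3 counts. It had 3, 1, 0 and 0 counts in EV-recipient synoviocytes and 1, 1, 0, 0 and 0 in EV-recipient chondrocytes. The single count in EV-recipient chondrocyte replicate 1, the shallowest library, made 204 RPM with an interval of 5.18 to 1139, and it set the group mean of 41.3 ± 91.2 RPM (SD, n = 5). EV-recipient synoviocytes averaged 3.02 ± 3.55 RPM (SD, n = 4; exact permutation p = 0.96). Without that library, the difference turned from -38.3 to 2.46 RPM. eca-miR-200c and eca-miR-205 were never counted in the same library. The other epithelial names listed, miR-200a, miR-200b, miR-141, miR-429 and miR-203, had no row, so that the relatives of eca-miR-200c in its family could not be followed.

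**Figure D4:**
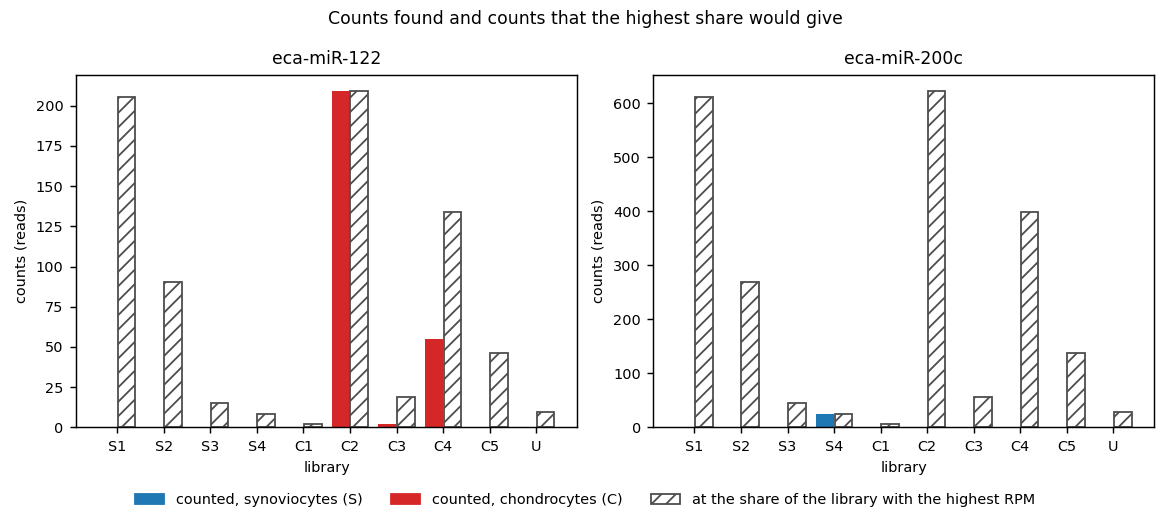
Counts found in each library (filled bars) beside the counts that the library would hold at the share of the library with the highest RPM (hatched bars), for eca-miR-122 (highest in C2) and eca-miR-200c (highest in S4). S1 would hold 205 counts of eca-miR-122 and 611 of eca-miR-200c and holds 0 of both; U is the unassigned library, with 0 counts of both.

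eca-miR-9a was the only one of these miRNAs from the nervous system. It had 2, 0, 0 and 0 counts in EV-recipient synoviocytes and 0, 1, 3, 10 and 0 in EV-recipient chondrocytes. EV-recipient chondrocyte replicate 4 lay above the floor, at 35.1 RPM (16.8 to 64.6), and replicate 3 lay at it, at 75.6 RPM (15.6 to 221). Replicate 2, though deeper than both, stood at 2.25 RPM with an interval up to 12.5. Means were 1.15 ± 2.29 RPM (SD, n = 4) in EV-recipient synoviocytes and 22.6 ± 33.2 RPM (SD, n = 5) in EV-recipient chondrocytes (exact permutation p = 0.365). The libraries of both groups overlapped at 0.

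Of 14 names fixed for neural tissue, 5 besides eca-miR-9a had a row. eca-miR-128, which many other tissues also make, was present in every labelled library and averaged 3671 ± 154 RPM (SD, n = 4) among EV-recipient synoviocytes and 4251 ± 1567 RPM (SD, n = 5) among EV-recipient chondrocytes. eca-miR-132 was counted in 7 libraries and eca-miR-218 in 6. eca-miR-129a-5p and eca-miR-129b-5p had 16 counts each, all in EV-recipient chondrocyte replicate 4, the library that also held 10 counts of eca-miR-9a and 17 of eca-miR-499-5p. Whether these equal counts are the same reads cannot be told apart from the table. miR-124 and 7 further neural names had no row, nor had any of the 4 names listed for pancreas.

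The abundance filter of the study (2045 RPM, which is what 10 counts made in the shallowest library, reached in at least 2 libraries) passed 49 miRNAs and none of the 9. edgeR's own filter passed 100, again none of the 9. Hence no member had a value in edgeR's quasi-likelihood test with the filter, which called 9 of 49 miRNAs (18.4%) at an unadjusted p under 0.05 and 4 (8.16%) at an adjusted p under 0.05. On the same 49 miRNAs, again without the 9, DESeq2 called 10 (20.4%) at an unadjusted p under 0.05 and 6 (12.2%) at an adjusted p under 0.05, and limma on either log scale and edgeR with a replicate block called 1 each (2.04%) at an adjusted p under 0.05. The exact permutation test on RPM called 19 of all miRNAs (7.95%) at an unadjusted p under 0.05 and 0 after Benjamini-Hochberg adjustment. None of the 9 was among the 19, and their adjusted p ran from 0.893 to 1. eca-miR-200c and eca-miR-499-3p, each counted in 1 library, could not have been among them. Neither could eca-miR-499-5p and eca-miR-133a, each counted in 2 libraries, nor eca-miR-122, counted in 3 EV-recipient chondrocyte libraries alone. Too many splits of the labels place so few libraries in the same group for a p under 0.05. The groups did not overlap in RPM for 12 of all miRNAs (5.02%), and for none of the 9.

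With no filter on low counts, edgeR's quasi-likelihood test called 14 of all miRNAs (5.86%) at an adjusted p under 0.05. Of the 9 tissue miRNAs it called 2: eca-miR-200c, higher in EV-recipient synoviocytes (adjusted p = 0.00213), and eca-miR-122, lower in EV-recipient synoviocytes (adjusted p = 0.03). For the other 7 the adjusted p from the same edgeR fit ran from 0.253 to 0.977. The call of eca-miR-122 was lost without EV-recipient chondrocyte replicate 2 (adjusted p = 0.243 in edgeR), and it held in 4 of the 9 fits that left out a library. The call of eca-miR-200c held in 8 of 8 such edgeR fits, since each of them kept the only library with a count. Without EV-recipient synoviocyte replicate 4 there was nothing left to test. The exact permutation test gave p = 0.286 for eca-miR-122 and p = 0.444 for eca-miR-200c. With counts in so few libraries of 1 group it could not have given a p under 0.05 for either. It therefore decides nothing about the edgeR calls. The prior degrees of freedom of the edgeR fit were 5.43 with the filter and infinite with none, so that in the fit with no filter the spread of each miRNA between horses had no weight of its own beside the common trend.

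How unevenly the counts fell over the 9 labelled libraries differed widely among the 9 miRNAs. Chi-square over degrees of freedom, with expected counts set by depth, was 268 for eca-miR-200c and 46.2 for eca-miR-122, against a median of 11.0 over all miRNAs. It lay between 5.14 and 8.27 for eca-miR-1, eca-miR-499-5p, eca-miR-205 and eca-miR-9a, and was 2.23 for eca-miR-499-3p. For eca-miR-133a and eca-miR-192 it was 0.876 and 0.765. Thus the counts of eca-miR-133a and eca-miR-192 varied no more than depth and counting error would give, while those of eca-miR-200c and eca-miR-122 sat in few libraries. With expected counts this small the ratio is a description only. The top library held 78.6% of the counts of eca-miR-122 and all those of eca-miR-200c and eca-miR-499-3p, and a median of 62.5% over the 9, against 45.45% over all miRNAs.

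In the unassigned library, 96 miRNAs (40.2% of the table) had a count and 0 of the 9 had one. The floor there was 148 RPM, and the interval at 0 counts reached 181 RPM. At its highest share seen in a labelled library, eca-miR-200c would have given 28.4 counts there and eca-miR-122 would have given 9.56. For eca-miR-205 the figure was 4.16, but it rests on the single count of EV-recipient chondrocyte replicate 1, and for the remaining 6 it lay between 0.229 and 2.52. For these 7 the depth of the unassigned library could not show a difference.

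Profiles across the 9 labelled libraries were compared for the 5 tissue miRNAs with counts in at least 3 of them, against 161 miRNAs, by Spearman's rho of RPM as a description. All these libraries share their depth differences, and ties at 0 carry much of each value. Nearest to eca-miR-122 were eca-miR-3548 (rho = 0.858), eca-miR-497 and eca-miR-99a (both 0.822). Nearest to eca-miR-9a was eca-miR-130b (0.92), followed by eca-miR-9021 (0.836) and eca-miR-31 (0.801). Nearest to eca-miR-192 were eca-miR-543 (0.92), eca-miR-28-5p (0.917) and eca-miR-18a (0.9). For eca-miR-1 the nearest were eca-miR-215 (0.734), eca-miR-362-5p (0.705) and eca-miR-26a (0.683), and for eca-miR-205 they were eca-let-7g (0.822), eca-miR-708 (0.803) and eca-miR-125a-5p (0.712). None of these 5 was among the 3 nearest of another. The other tissue miRNAs could not be, since only miRNAs with counts in at least 3 of the libraries were compared.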

How the data were processed

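Reads had been run by the authors through miND, a small RNA pipeline that they set up for horse (FastQC 0.11.9, MultiQC 1.10, cutadapt 3.3, Bowtie 1.3.0 and miRDeep2; EquCab 3.0, then horse entries of miRBase with 1 mismatch). The authors deposited raw counts in 247 rows (miRNAs and 8 spike-in calibrators) for 10 libraries. All columns were mapped to samples, and the library without a group in its labels entered no comparison. A table of RPM that the authors also deposited was not used. RPM were computed from the counts over the miRNA total of each library, spike-ins left out. Depth was 4891 to 444408 counts. At 1 count a level is known only within the intervals given (exact Clopper-Pearson, scipy 1.17.1, Python 3.11.15). Group differences were tested with edgeR 4.0.16 in R 4.3.3 (quasi-likelihood, TMM, 9 libraries, Benjamini-Hochberg), after the study's methods, and with exact permutation tests over all splits into 4 and 5 libraries for every miRNA (smallest p 0.00794), adjusted over all miRNAs. Both were tried on simulated data, edgeR on rows that passed the study's filter and the permutation test on normally distributed values. Neither simulation covered rows like those of the 9 tissue miRNAs, which are mostly at 0. Alternatives covered detection minimum, filter, normalization, DESeq2 1.42.0, limma 3.58.1 on log2(RPM + 1) and log2(RPM + 10), spike-in scaling, a replicate block and leaving out libraries. The rule for named miRNAs took all 9, the detected miRNAs of 7 tissue lists (the 4 most counted where more than 5 were detected), and the 3 nearest in profile. In the blood and cartilage lists the rule was followed only where a result turned on them. The members and lists were chosen with earlier results of these data known. Mature sequences are not printed here.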

Additional observations from a re-analysis of the deposited data

Results flagged for a closer look

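In 9 of the 15 series of libraries in which a tissue miRNA had any count (1 miRNA in 1 group), a single library stood apart from the rest of its group by Dixon's test. Chance flags about 1 in 20 such groups of normally distributed values, but these series hold many zeros. Flags were not counted over all miRNAs. Of all miRNAs, 55 were counted in 1 labelled library only, as were 2 of the tissue miRNAs. A miRNA counted in only 1 library of a group is always flagged, and 8 of the 9 flags are of that kind. In EV-recipient synoviocytes these were eca-miR-200c in replicate 4 (1399 RPM, 24 counts) and, in replicate 1, eca-miR-9a (4.58 RPM, 2 counts), eca-miR-499-5p (6.87 RPM, 3 counts), eca-miR-499-3p (16.0 RPM, 7 counts) and eca-miR-133a (9.16 RPM, 4 counts). In EV-recipient chondrocytes they were eca-miR-1 in replicate 5 (71.0 RPM, 7 counts), eca-miR-499-5p in replicate 4 (59.7 RPM, 17 counts), eca-miR-133a in replicate 2 (11.3 RPM, 5 counts) and eca-miR-205 in replicate 1 (204 RPM, 1 count).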

How the results depend on the processing

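With a minimum of 10 counts the miRNAs found were 2 in EV-recipient synoviocytes and 3 in EV-recipient chondrocytes, and with counts required in 2 libraries they were 3 and 4. At equal depth per library, over 4 and 5 libraries, 1.87 and 3.06 were expected. With more than 3 counts, a minimum chosen after the data were seen, the numbers were 5 and 5. Leaving out each library in turn gave 4 to 8 in EV-recipient synoviocytes and 6 to 7 in EV-recipient chondrocytes.

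In the 115 alternatives of the exact permutation test on single miRNAs, adjusted p stayed between 0.833 and 1, and the direction changed in 11. With so few splits this test could hardly give an adjusted p under 0.05. In the main setting its smallest p, 0.00794, became 0.316 after adjustment. The range of adjusted p therefore says little about stability. Per 1000 spike-in counts the difference for eca-miR-205 was 0.0039, and with the replicate block that for eca-miR-133a was -0.52 RPM. Leaving out each library gave ranges across 0 for eca-miR-1 (-5.03 to 37.9 RPM), eca-miR-205 (-48.7 to 2.46), eca-miR-499-5p (-13.2 to 1.72), eca-miR-192 (-0.12 to 4.46) and eca-miR-133a (-2.25 to 2.29). It gave -178 to -60.9 RPM for eca-miR-122, -27.1 to -8.20 for eca-miR-9a, 350 to 466 for eca-miR-200c and 4.01 to 5.35 for eca-miR-499-3p.

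With the filter edgeR called 9 at an unadjusted p and 4 at an adjusted p under 0.05. As alternatives, 17 of all tested miRNAs were called at an unadjusted p under 0.05 with filterByExpr, 44 with no filter, 0 with spike-in counts as library size and 7 to 18 without 1 library. At an adjusted p the numbers were 6 with DESeq2, 14 with no filter, 0 with spike-in counts, 1 with limma on either log scale, 1 with the replicate block and 1 to 8 without 1 library. With no filter all 9 tissue miRNAs were tested and 2 were called. Fits with no filter and without 1 library, chosen after the data were seen, called 1 or 2. Fits with the filter and without 1 library tested none of the 9 and so called 0. The other alternatives passed and called 0 of the 9. Replicate numbers do not pair the libraries: correlations of same-numbered deviations over 49 miRNAs ran from -0.405 to 0.112, and the block's sign flips cannot give p below 0.125. Depth limits what a count of 0 can show.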
